A study of Solanum lycopersicum with 8 samples.

Results

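HY5, COP1 and CRY2 are 3 genes through which plants read light, and each is represented by 1 probe set on the Affymetrix Tomato Genome Array. The members were found by gene symbol or synonym in the platform annotation, which gave 3 probe sets of the 10209 in the table, 1 for HY5 (also listed as LeHY5 and thy5), 1 for COP1 and 1 for CRY2. That annotation names 803 genes. RNA came from mature green tomato fruit (Solanum lycopersicum), from the peel, of plants kept over winter under heated glass that did not go below 12 °C, and was labelled with biotin. The 4 genotypes were the double mutant Aft/Aft atv/atv with strong anthocyanin pigmentation, the atv (atroviolacea) mutant without significant anthocyanin, the Aft (Anthocyanin fruit) mutant with limited anthocyanin in spots, and the wild type cv. Ailsa Craig without significant anthocyanin. The labels name no cultivar for the mutant lines, so line background and genotype cannot be told apart. Each genotype had 2 biological replicates on 1 array each, 8 arrays in all, and this number limits the precision.

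CRY2 is a cryptochrome, a photoreceptor for blue light. COP1 is a ubiquitin ligase that, in darkness, marks light-promoting transcription factors for degradation, and light acting through photoreceptors such as the cryptochromes restrains it. HY5, a bZIP transcription factor, is the classic COP1 target in Arabidopsis, and once it accumulates it promotes light-responsive genes, among them genes of flavonoid and anthocyanin synthesis and of the chloroplast. Much of the control between COP1 and HY5 acts on protein, which these arrays do not measure.

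The deposited values are linear intensities, and array medians lay between 514.5 (double mutant 2) and 755.4, the median of Aft mutant 2. Levels below are log2 intensities after quantile normalization of the 8 arrays, and each change is a log2 difference fitted with limma and adjusted over the 9493 probe sets tested, with a threshold of 0.05. All 3 members passed the filter on low values, and none was near background on any array. Replicate arrays had Pearson r from 0.977 to 0.988. The 2 atv mutant arrays stood apart, their r with wild type arrays averaging 0.910 and 0.898, against 0.953 and 0.941 for the double mutant and 0.962 and 0.965 for the Aft mutant. As a sign of RNA quality, 3' control probe sets exceeded their 5' partners on the log2 scale by a mean of 1.47 and 1.47 in the double mutant, 1.71 and 1.62 in the atv mutant, 1.75 and 1.53 in the Aft mutant, against 1.98 and 1.82 in the wild type. The part of this in the results below was not tested. Of the markers chosen for the cuticle and epidermis, 3 genes were on the array, the lipid transfer protein genes ltpg1, LE16 and TSW12. ltpg1 lay between 13.95 and 14.18 on all 8 arrays, but there was no sample of another tissue to compare it with. LE16 read 13.15 and 13.00 in the double mutant, 13.77 and 13.79 in the atv mutant, 11.97 and 12.19 in the Aft mutant, against 11.93 and 11.89 in the wild type. TSW12 was likewise highest in the atv mutant and next in the double mutant. Of the markers of other fruit tissues 2 were on the array. AGL11, a MADS-box gene of ovules and seeds, read 5.55 and 4.91 in the double mutant, 0.91 and 0 in the atv mutant, 5.52 and 5.86 in the Aft mutant, against 1.04 and 1.70 in the wild type. TPx1, chosen as a vascular marker, lay between 13.25 and 13.49 on all arrays. The part of these shifts in the member results was not tested. In bulk peel, fewer cells of a type and less RNA per cell cannot be told apart.

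Setting atv mutant arrays against wild type arrays asks what goes with the atv allele alone. HY5 was higher in the atv mutant, while COP1 and CRY2 were lower, and CRY2 showed the largest change of the 3. All 3 members passed the test, against 40.3% of all probe sets in this comparison. Of all probe sets, 18.8% were called higher and 21.5% lower, and the median change over all of them was -0.11.

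HY5 read 11.41 and 11.30 in the atv mutant, against 10.74 and 10.81 in the wild type. Both atv mutant arrays lay above both wild type arrays, on the deposited scale as well (2938.2 and 2425.5, against 1833.1 and 1817.2). The rise was 0.58 on the log2 scale (limma, SE 0.11, 95% interval 0.31 to 0.85, adjusted p = 0.0090). The call ended without wild type 1 (adjusted p = 0.066) and on the values as deposited (adjusted p = 0.13), with changes of 0.54 and 0.55.

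COP1 read 9.99 and 10.28 in the atv mutant, against 10.82 and 10.81 in the wild type. The groups did not overlap, and the spread lay mostly between the atv mutant arrays. COP1 fell by 0.68 (SE 0.12, 95% interval -0.97 to -0.38, limma adjusted p = 0.0078), or 1.60-fold lower. The call was narrowly lost without wild type 1 (adjusted p = 0.052) and as deposited (adjusted p = 0.059).

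CRY2 read 10.56 and 10.63 in the atv mutant, against 11.64 and 11.65 in the wild type. Replicates lay close together and the genotypes far apart. CRY2 fell by 1.05 (SE 0.11, 95% interval -1.32 to -0.78, limma adjusted p = 0.0011), or 2.07-fold lower. This was the firmest of the member results, called in all 16 alternative settings, with adjusted p no higher than 0.013.

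**Figure D1:**
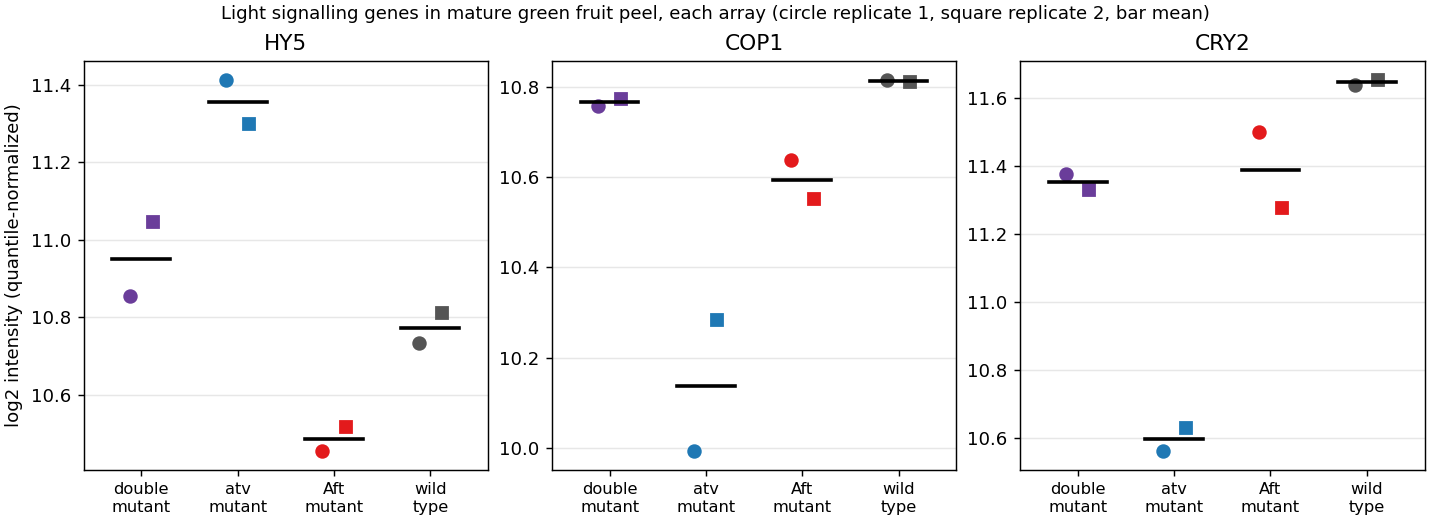
Log2 intensity after quantile normalization (vertical axes, 1 scale per gene) of HY5, COP1 and CRY2 on each of the 8 arrays by genotype, with a bar at the mean of 2 replicates. HY5 is highest in the atv mutant at 11.41 and 11.30, while COP1 (9.99 and 10.28) and CRY2 (10.56 and 10.63) are lowest there.

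In the strongly pigmented double mutant none of the 3 members passed the test against the wild type, where 13.1% of all probe sets did (7.39% higher and 5.73% lower). HY5 read 10.85 and 11.05 in the double mutant, against 10.74 and 10.81 in the wild type, a difference of 0.18 (95% interval -0.09 to 0.44, limma adjusted p = 0.30). On the deposited values the double mutant arrays lay on both sides of the wild type (1875.4 and 1764.3, against 1833.1 and 1817.2), and the difference was -0.0049. HY5 thus had no settled direction in this comparison.

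COP1 read 10.76 and 10.77 in the double mutant, against 10.82 and 10.81 in the wild type. The difference was -0.05, with a 95% interval from -0.35 to 0.25 (limma adjusted p = 0.80). CRY2 read 11.38 and 11.33 in the double mutant, against 11.64 and 11.65 in the wild type. Both double mutant arrays were below both wild type arrays, and the difference of -0.29 (SE 0.11, 95% interval -0.56 to -0.03) did not pass (limma adjusted p = 0.12). As deposited the differences were -0.49 for CRY2 and -0.23 for COP1, neither called, and that of HY5 moved between 0.08 without double mutant 2 and 0.27 without double mutant 1.

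With the Aft allele alone none of the 3 members passed against the wild type, where 5.58% of all probe sets did (2.78% higher and 2.80% lower). HY5 read 10.46 and 10.52 in the Aft mutant, the lowest of the 4 genotypes, against 10.74 and 10.81 in the wild type. The difference was -0.29 (SE 0.11, 95% interval -0.55 to -0.02, limma adjusted p = 0.26). COP1 (10.64 and 10.55, against 10.82 and 10.81) differed by -0.22, with a 95% interval from -0.52 to 0.08 (limma adjusted p = 0.45). CRY2 (11.50 and 11.28, against 11.64 and 11.65) differed by -0.26, with a 95% interval from -0.52 to 0.01 (limma adjusted p = 0.31), and by -0.15 without Aft mutant 2 and -0.37 without Aft mutant 1. On the deposited scale HY5 and COP1 of Aft mutant 2 (1705.6 and 1741.7) came close to the wild type (1817.2 and 1815.7 in wild type 2). Leaving out both atv mutant arrays, a setting chosen after seeing the data, gave -0.29 for HY5, -0.22 for COP1 and -0.26 for CRY2, none of them called. The 3 comparisons above share the wild type arrays, so their values are not independent.

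What Aft goes with where atv is already present was read from the double mutant against the atv mutant. All 3 members passed, against 44.0% of all probe sets (24.7% higher and 19.3% lower). Each stood nearer to the wild type level in the double mutant than in the atv mutant. So did the arrays as a whole, with a mean r with the wild type of 0.947 against 0.904. The same atv mutant arrays enter the atv mutant against the wild type and the interaction, so these results are not independent. COP1 was higher in the double mutant by 0.63 (SE 0.12, 95% interval 0.33 to 0.93, limma adjusted p = 0.0091), or 1.55-fold. CRY2 was higher by 0.76 (SE 0.11, 95% interval 0.49 to 1.02, limma adjusted p = 0.0031), or 1.69-fold. HY5 fell by 0.41 (SE 0.11, 95% interval -0.67 to -0.14, limma adjusted p = 0.028), or 1.33-fold lower. For COP1 and CRY2 both double mutant arrays lay above both atv mutant arrays, and for HY5 both lay below. With 2 arrays a genotype, such an order is not a test in itself.

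The HY5 call of this comparison was the least stable. It ended without wild type 1 or wild type 2 (adjusted p = 0.060 for either), atv mutant 1 (adjusted p = 0.088), double mutant 1 (adjusted p = 0.15) or double mutant 2 (adjusted p = 0.052), as deposited (adjusted p = 0.12), with median scaling (adjusted p = 0.13) and with only the groups compared (adjusted p = 0.095). The COP1 call was lost without double mutant 2 (adjusted p = 0.054) and as deposited (adjusted p = 0.17). The CRY2 call was lost only as deposited (adjusted p = 0.060).

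The converse step, atv beside Aft, was read from the double mutant against the Aft mutant, where 4.10% of all probe sets passed (2.52% higher and 1.58% lower) and none of the 3 members did. HY5 came closest, at 10.85 and 11.05 in the double mutant against 10.46 and 10.52 in the Aft mutant. The difference was 0.46 (SE 0.11, 95% interval 0.20 to 0.73), with both double mutant arrays above both Aft mutant arrays (limma adjusted p = 0.082). With a trended and robust estimate of the spread it was called (adjusted p = 0.041). COP1 differed by 0.17 (95% interval -0.13 to 0.47, limma adjusted p = 0.40), and by 0.04 as deposited. CRY2 differed by -0.04 (95% interval -0.30 to 0.23, limma adjusted p = 0.86), and its double mutant values of 11.38 and 11.33 lay between the Aft mutant values of 11.50 and 11.28. As deposited the CRY2 difference was -0.18, and with 1 array left out it ran between -0.15 without Aft mutant 2 and 0.075 without Aft mutant 1.

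The interaction term asked whether the change that goes with atv is the same with and without Aft. It passed for 24.2% of all probe sets and for 2 of the 3 members, COP1 and CRY2. For COP1 the change with atv was 0.17 in the Aft background and -0.68 in the wild type background, an interaction of 0.85 (SE 0.17, 95% interval 0.43 to 1.27, limma adjusted p = 0.019). For CRY2 the changes were -0.04 and -1.05, an interaction of 1.01 (SE 0.15, 95% interval 0.64 to 1.39, limma adjusted p = 0.0077). Both genes thus fell with atv in fruit without Aft, and neither passed the test beside Aft.

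For HY5 the change with atv was 0.46 in the Aft background and 0.58 in the wild type background. The interaction of -0.12 did not pass, with a 95% interval from -0.50 to 0.26 (limma adjusted p = 0.62), which leaves room for a difference of that size. It was -0.03 when double mutant 1 was left out, -0.22 when double mutant 2 was and -0.06 when atv mutant 1 was, and -0.21 as deposited and -0.03 with median scaling, called in none of these. Whether the HY5 interaction differs from those of COP1 and CRY2 was not tested. The COP1 interaction lost its call without wild type 1 (adjusted p = 0.077), wild type 2 (adjusted p = 0.074), Aft mutant 2 (adjusted p = 0.053), double mutant 1 (adjusted p = 0.064) or double mutant 2 (adjusted p = 0.072). As deposited neither interaction was called (adjusted p = 0.20 for COP1 and 0.089 for CRY2).

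**Figure D2:**
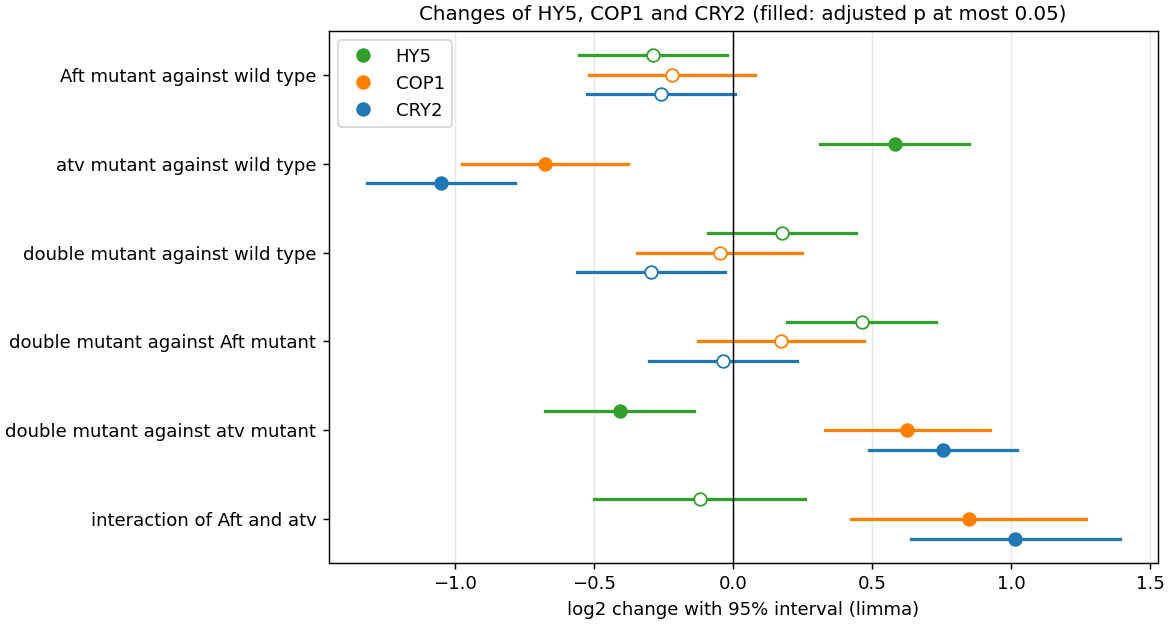
Log2 changes of HY5, COP1 and CRY2 (horizontal axis, points) with 95% intervals from limma in the 6 comparisons (rows), with filled points where the adjusted p was at most 0.05. In the atv mutant against the wild type HY5 lies at 0.58, COP1 at -0.68 and CRY2 at -1.05, and the interaction is filled for COP1 and CRY2 only.

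Set in order within each gene, HY5 ran from the atv mutant (mean 11.36) through the double mutant (10.95) and the wild type (10.77) to the Aft mutant (10.49). Of these neighbours the atv and double mutants differed by the test, while the double mutant and the wild type, and the wild type and the Aft mutant, did not. COP1 ran from the wild type (10.81) through the double mutant (10.77) and the Aft mutant (10.59) to the atv mutant (10.14), and CRY2 from the wild type (11.65) through the Aft mutant (11.39) and the double mutant (11.35) to the atv mutant (10.60). The COP1 arrays of the Aft and atv mutants did not overlap, but that pair was not tested. For CRY2 the step between the double mutant and the atv mutant was called and the others were not.

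Ratios between 2 genes on the same array do not depend on a single scaling factor per array, and are given here from the deposited intensities with no test. Quantile normalization does move them, for example to 1.26 in place of 1.21 for the mean HY5 over COP1 difference between the atv mutant and wild type arrays. Only differences between genotypes can be read from them, since different probe sets have no common scale. The log2 ratio of HY5 over COP1 was 0.09 and 0.28 in the double mutant, 1.35 and 0.99 in the atv mutant, -0.20 and -0.03 in the Aft mutant, against -0.08 and 0.0012 in the wild type. It was highest on both atv mutant arrays, where its mean was 1.21 above that of the wild type. The double mutant mean was 0.22 above the wild type, and the Aft mutant arrays overlapped the wild type.

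The log2 ratio of HY5 over CRY2 was -0.51 and -0.28 in the double mutant, 0.86 and 0.65 in the atv mutant, -1.10 and -0.74 in the Aft mutant, against -0.91 and -0.84 in the wild type. As for HY5 over COP1, the double mutant arrays lay above all Aft mutant and wild type arrays. The double mutant mean was 0.48 above the wild type, against 1.63 for the atv mutant. The ratio of COP1 over CRY2 differed less, with double mutant and atv mutant means 0.26 and 0.42 above that of the wild type and CRY2 the more lowered of the pair.

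**Figure D3:**
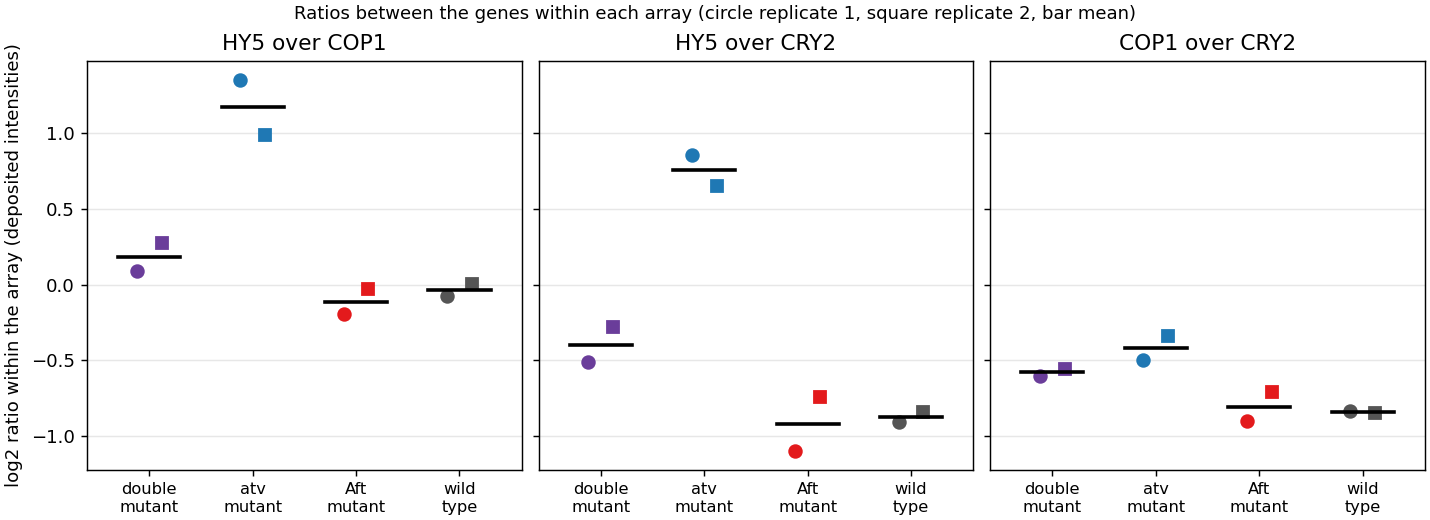
Log2 ratios of deposited intensities within each array (vertical axis) for HY5 over COP1, HY5 over CRY2 and COP1 over CRY2, by genotype, with a bar at the mean of 2 replicates. HY5 over COP1 reaches 1.35 and 0.99 in the atv mutant and stays between -0.20 and 0.28 on the other 6 arrays.

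Across the 8 arrays COP1 and CRY2 varied together (Pearson r = 0.94), and HY5 varied against both (r = -0.66 with COP1 and -0.80 with CRY2). These are descriptions over arrays of 4 genotypes with no test. They rest in large part on the atv mutant arrays, since over the other 6 arrays r was 0.61 for COP1 and CRY2, 0.75 for HY5 and COP1 and -0.04 for HY5 and CRY2. HY5 and COP1 thus ran in opposite directions only where the atv mutant was included.

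Among 693 tested probe sets of other named genes, the pattern most like that of HY5 was that of ZEP, zeaxanthin epoxidase of the xanthophyll cycle (r = 0.97 over 8 arrays and 0.98 over the 6 arrays without the atv mutant). ZEP read 12.19 and 12.37 in the double mutant, 12.65 and 12.88 in the atv mutant, 11.46 and 11.47 in the Aft mutant, against 11.91 and 11.90 in the wild type, the same order of genotypes as HY5. GRAS10 (r = 0.96, or 0.94 without the atv mutant) and the amino acid permease gene AAP2 (0.96, or 0.97) followed. CHI17, a chitinase gene (r = -0.96, or -0.86), and DAD1 (-0.95, or -0.96) ran most nearly opposite.

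The pattern nearest to COP1 was that of dhbK (r = 0.99, or 0.89 over the 6 arrays without the atv mutant), at 10.32 and 10.36 in the double mutant, 9.94 and 10.10 in the atv mutant, 10.32 and 10.27 in the Aft mutant, against 10.41 and 10.40 in the wild type. SODCC.1, a superoxide dismutase gene, and FKBP12, an immunophilin gene, came next (r = 0.98 each, but 0.77 and 0.76 without the atv mutant). Neither of these genes was called in any comparison. DDTFR8 (r = -0.96, or -0.98) and the small heat shock protein gene vis1 (-0.95, or -0.76) ran opposite. Nearest to CRY2 were the galactosidase gene TBG4 (r = 0.98, or 0.87 without the atv mutant), the glucanase gene GluB (0.96, or 0.74) and DGK1 (0.96, or 0.73). Most nearly opposite to CRY2 was VDE, violaxanthin de-epoxidase, which works against ZEP in the xanthophyll cycle (r = -0.98, and -0.96 over the 6 arrays without the atv mutant), followed by XTH3 (r = -0.98, or -0.82). VDE read 8.52 and 8.59 in the double mutant, 10.86 and 11.18 in the atv mutant, 8.19 and 8.63 in the Aft mutant, against 8.02 and 8.17 in the wild type, so the atv mutant arrays alone stood high.

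Of the other genes on a list of light signalling genes, 9 were on the array and all were tested. They were the photoreceptor genes PHYA, CRY1A and Cry1b, AUREA for phytochrome chromophore synthesis, DDB1, DET1 and CUL4, whose proteins form a ubiquitin ligase complex that represses light responses, csn5, for the catalytic subunit of the COP9 signalosome, and LePCL1, named after the Arabidopsis clock gene PCL1. In the atv mutant against the wild type 1 rose, 2 fell and 6 did not pass, with a median change of -0.05 against -0.11 over all probe sets, of which 40.3% were called. The list was thus called no more often than the array as a whole. None of the 9 passed in the double mutant or the Aft mutant, each set against the wild type, or in the double mutant against the Aft mutant, where 13.1%, 5.58% and 4.10% of all probe sets did, shares too small for a count of 0 among 9 genes to set the list apart. In the double mutant against the atv mutant 2 rose and 1 fell (median -0.02, against 0.10 over all probe sets), where 44.0% of all probe sets were called. The interaction passed for 1 of the 9 (median -0.08, against 0.10), and for 24.2% of all probe sets.

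AUREA encodes phytochromobilin synthase, which makes the chromophore of the phytochromes. It read 6.88 and 6.34 in the double mutant, 7.71 and 7.57 in the atv mutant, 5.31 and 5.95 in the Aft mutant, against 5.96 and 5.55 in the wild type. It rose by 1.89 in the atv mutant against the wild type (SE 0.29, limma adjusted p = 0.0044), a call kept in all 16 alternative settings. Its fall by 1.03 in the double mutant against the atv mutant (limma adjusted p = 0.033) was lost without atv mutant 1 (adjusted p = 0.11), atv mutant 2 (adjusted p = 0.074) or double mutant 2 (adjusted p = 0.15), as deposited (adjusted p = 0.078) and with a replicate block (adjusted p = 0.051).

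csn5 read 10.99 and 11.03 in the double mutant, 10.59 and 10.47 in the atv mutant, 10.97 and 10.90 in the Aft mutant, against 10.97 and 10.86 in the wild type, so that the atv mutant arrays alone were low. It fell by 0.39 in the atv mutant against the wild type (SE 0.10, limma adjusted p = 0.024) and was 0.48 higher in the double mutant than in the atv mutant (SE 0.10, limma adjusted p = 0.011). The first call was lost without wild type 1 (adjusted p = 0.15), wild type 2 (adjusted p = 0.077), atv mutant 2 (adjusted p = 0.069), double mutant 1 (adjusted p = 0.055) or double mutant 2 (adjusted p = 0.055), and with only the groups compared (adjusted p = 0.079). The other was lost without double mutant 1 (adjusted p = 0.055) or double mutant 2 (adjusted p = 0.068), and as deposited neither was called (adjusted p = 0.23 and 0.31).

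LePCL1 showed the largest changes of the list. It read 9.40 and 9.44 in the double mutant, 4.78 and 5.42 in the atv mutant, 9.14 and 8.92 in the Aft mutant, against 8.49 and 8.61 in the wild type. In the double mutant it was 4.32 higher than in the atv mutant (SE 0.22, limma adjusted p = 9.2e-05), and its interaction was 3.85 (SE 0.31, limma adjusted p = 0.00099). Its atv mutant values lay little above the filter on low values, so the sizes of these changes are uncertain. Like COP1 and CRY2, LePCL1 was lowest in the atv mutant. In the double mutant against the wild type the differences were 0.87 for LePCL1, -0.05 for COP1 and -0.29 for CRY2. None of these passed the test.

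The other cryptochrome genes on the array are CRY1A and Cry1b. Cry1b read 11.77 and 11.75 in the double mutant, 11.73 and 11.77 in the atv mutant, 12.05 and 11.90 in the Aft mutant, against 11.81 and 11.81 in the wild type. Its change in the atv mutant against the wild type was -0.05, with a 95% interval from -0.29 to 0.18 (limma adjusted p = 0.67), an interval that lies wholly above that of CRY2. The brighter CRY1A probe set changed by 0.15 (95% interval -0.19 to 0.48, limma adjusted p = 0.43). The dimmer CRY1A probe set, at 5.28 and 4.28 in the atv mutant and 5.72 and 5.98 in the wild type, fell by 1.07 (limma adjusted p = 0.050), so the CRY1A probe sets disagree. That call was lost in most alternative settings, among them without atv mutant 2 (-0.56, adjusted p = 0.099). PHYA changed by 0.17 (95% interval -0.13 to 0.48, limma adjusted p = 0.31), and DDB1, DET1 and CUL4 by -0.05, 0.26 and -0.15, none of them called.

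A phytochrome gene is also carried among the array's control probe sets, which were left out of the test. The 3' control probe set named for PhyB2, a red light photoreceptor, read 10.06 and 10.26 in the double mutant, 8.42 and 8.87 in the atv mutant, 9.63 and 9.62 in the Aft mutant, against 9.91 and 9.85 in the wild type. It was lowest on the atv mutant arrays. The middle PhyB2 probe set did not show this, as it lay between 3.85 and 4.95 and was highest on atv mutant 2. The 5' one was also lowest on the atv mutant arrays (0.38 and 0.86), but was at or below 3.50 on every array. Both were in the range of background.

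**Figure D4:**
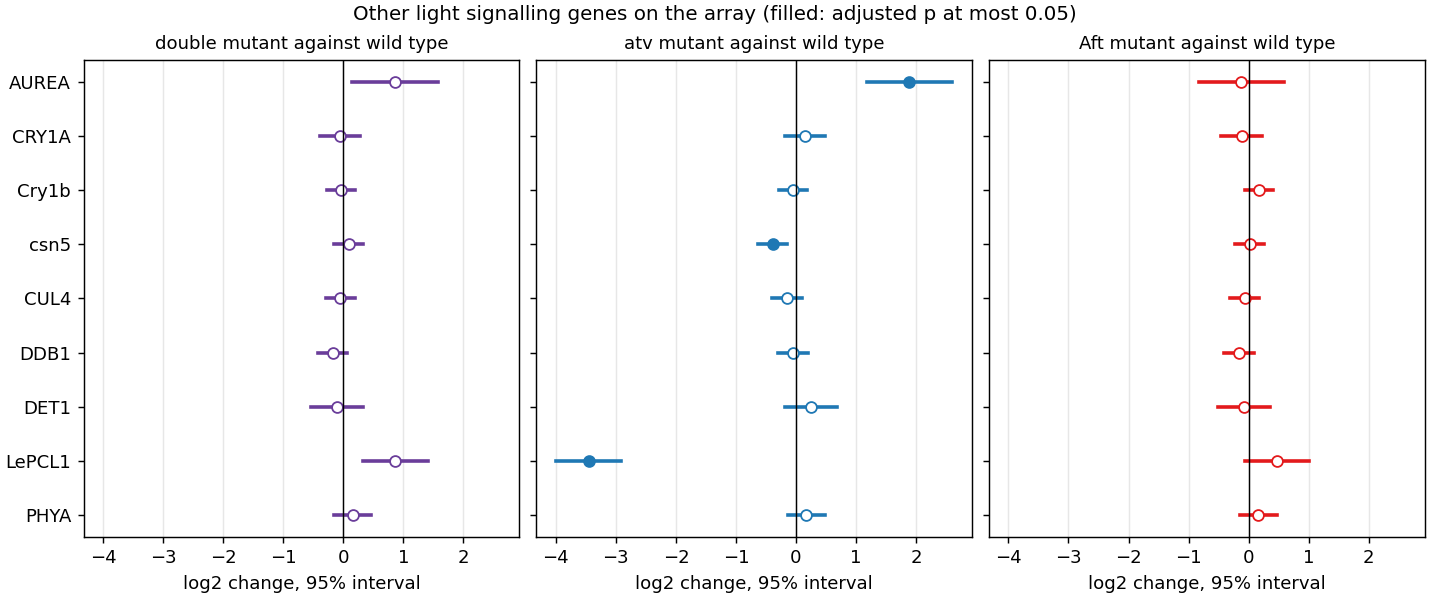
Log2 changes (horizontal axes) with 95% intervals of 9 other light signalling genes (rows) in the double, atv and Aft mutants against the wild type, with filled points where the adjusted p was at most 0.05. Filled points appear only in the atv mutant, for AUREA at 1.89, csn5 at -0.39 and LePCL1 at -3.45.

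Of genes known to respond to light, 10 on a second list were on the array. This list was chosen with earlier results of these data known, and a link of its genes to HY5 was not tested. In the atv mutant against the wild type 9 of these 10 rose and none fell. The median change was 1.09, against -0.11 over all probe sets, of which 18.8% rose and 21.5% fell. Those that rose were the chlorophyll-binding protein genes CAB4, CAB5 and CAB6A, plastocyanin PETE and the protochlorophyllide reductase POR2. The phytoene synthases Psy1 and PSY2 also rose, as did CHS1 and DFR of flavonoid and anthocyanin synthesis. The chalcone synthase CHS2 was not called. Psy1 has 3 probe sets, of which the brightest was counted, and the other 2 were not called in this comparison. They disagree in the Aft mutant, where the counted probe set fell by 0.67 against the wild type (limma adjusted p = 0.023) and another rose by 0.85 (limma adjusted p = 0.0079), so no direction is given for Psy1 there.

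CAB4 read 12.85 and 12.83 in the double mutant, 13.84 and 13.83 in the atv mutant, 12.89 and 12.76 in the Aft mutant, against 13.05 and 13.13 in the wild type. CAB6A rose by 0.65 in the atv mutant against the wild type (SE 0.09, limma adjusted p = 0.0031) and PSY2 by 2.33 (SE 0.16, limma adjusted p = 0.00027), both called in all 16 alternative settings. In the double mutant against the wild type 2 of the 10 rose, CHS1 and DFR, and none fell, with a median of -0.01 against 0.04 over all probe sets, of which 13.1% were called. In the Aft mutant 2 rose and 3 fell, Psy1 counted as falling by its brightest probe set (median -0.15, against 0.0040 over all probe sets, of which 5.58% were called). Of the 10 genes 1 rose and 8 fell in the double mutant against the atv mutant (median -0.93, against 0.10 over all probe sets, of which 24.7% rose and 19.3% fell). CHS1 and DFR rose in all 3 mutants against the wild type. DFR read 0.71 and 3.33 in the wild type, below the filter on low values, so the sizes of its rises are uncertain. HY5 was called against the wild type in the atv mutant only. Its differences of 0.18 in the double mutant and -0.29 in the Aft mutant missed the threshold, which does not show that HY5 was unchanged there. Whether CHS1 and DFR follow HY5 across the genotypes was not tested. Leaving out both atv mutant arrays left 3 light-responsive genes called in the Aft mutant in place of 5, and 3 in the double mutant in place of 2.

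**Figure D5:**
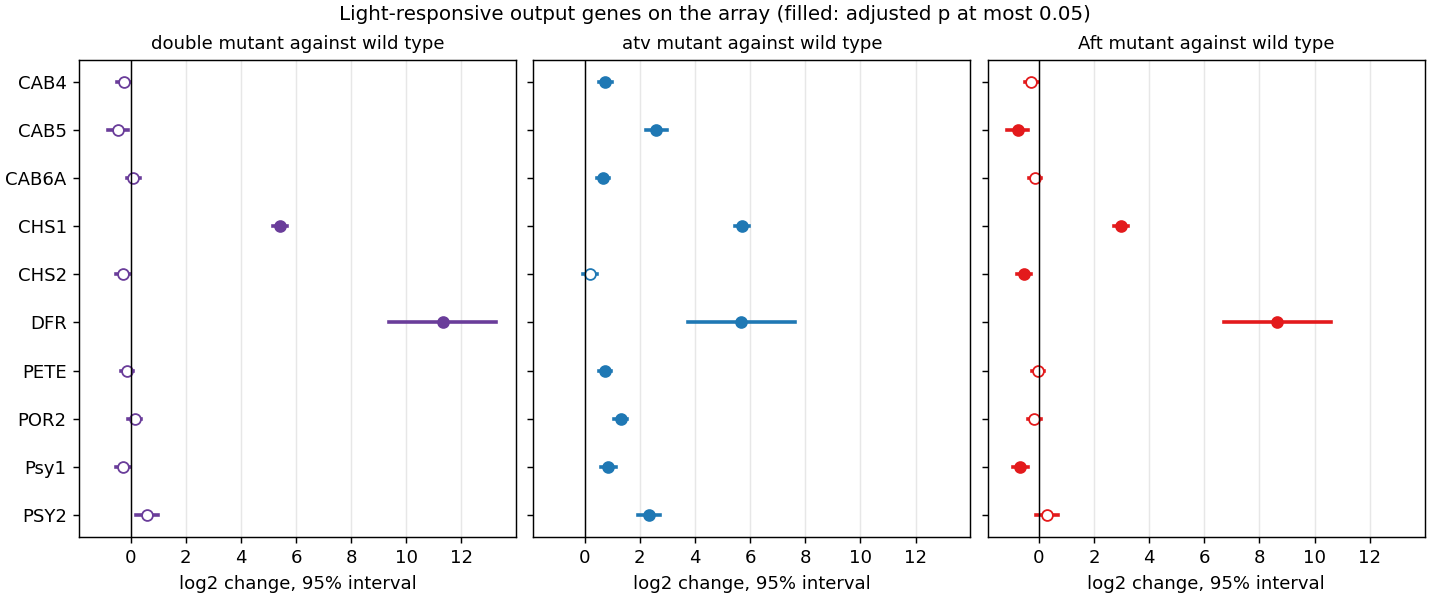
Log2 changes (horizontal axes) with 95% intervals of 10 light-responsive genes (rows) in the double, atv and Aft mutants against the wild type, with filled points where the adjusted p was at most 0.05. In the atv mutant 9 of 10 points are filled and lie above 0, and in the double mutant only CHS1 and DFR are filled; DFR was near background in the wild type, so its position is a fitted value and not a bound.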

How the data were processed

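Total RNA from fruit peel was hybridised to 8 arrays. The authors deposited 1 linear intensity per probe set and array; GCRMA stands, with no version, in the submitters' processing notes, and the scale of the intensities is not stated there. Because array distributions differed, quantile normalization was applied, then a floor of 1 and log2. Of 10209 probe sets 171 controls were left out, and the 9493 with a log2 value of at least 4 in at least 2 arrays were tested with limma 3.58.1 in R 4.3.3 (4 group means, all 8 arrays, empirical Bayes, two-sided, Benjamini-Hochberg over all tested probe sets). The method was tested on simulated data. Errors are SE from limma.

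Members, lists and tests were chosen with earlier results of these data known. The annotation named 909 probe sets, 885 of them matched to the current gene table of RefSeq. Genes of each list were found by symbol or synonym and counted by their brightest probe set. Genes of like pattern are the 3 highest and 2 lowest correlations per member; further genes named are those of the lists. Genome positions were not used here. Alternatives were the values as deposited, median scaling, a floor of 16, no filter, a filter at 6, a trended robust prior, the replicate number as a block, only the groups compared, and each array left out.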

Additional observations from a re-analysis of the deposited data

Results flagged for a closer look

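The change that goes with atv differed between the Aft background and the wild type background for COP1, with an interaction of 0.85 (limma adjusted p = 0.019), and for CRY2, with an interaction of 1.01 (limma adjusted p = 0.0077). Both were picked out because the difference between the backgrounds itself passed the test. An interaction passed for 24.2% of all probe sets. With 2 arrays a genotype, single outlying arrays could not be tested for.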

How the results depend on the processing

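Over 294 alternative values of the 18 member changes, 269 kept both direction and side of the threshold. On the values as deposited, the calls of the atv mutant against the wild type were lost for HY5 (0.55) and COP1 (-0.66), those of the double mutant against the atv mutant for HY5 (-0.55), COP1 (0.43) and CRY2 (0.59), and the interactions of COP1 (0.70) and CRY2 (0.90). HY5 in the double mutant against the wild type, not called in either, turned to -0.0049. Deposited values moved the median of all probe sets by up to -0.23, in the double mutant against the atv mutant. HY5 in the double mutant against the atv mutant was also lost with median scaling (-0.29) and with only the groups compared (-0.40), and HY5 in the double mutant against the Aft mutant was gained at 0.46 with the trended robust prior. With 1 array left out, some of these calls were lost, as given above. The changes in the atv mutant against the wild type then ranged from 0.53 to 0.64 for HY5 and from -0.82 to -0.53 for COP1, each call lost only without wild type 1. In the double mutant against the atv mutant the ranges were -0.50 to -0.31 for HY5 and 0.49 to 0.77 for COP1, and the COP1 interaction ranged from 0.71 to 0.99. CRY2 in the double mutant against the Aft mutant, never called, ranged from -0.15 to 0.075, above 0 only without Aft mutant 1. Where the cause of a change is not given by fewer arrays, it was not tested.

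Differences between replicates correlated weakly between genotypes, with r from -0.04 to 0.18. The highest were 0.18 for the atv mutant and wild type and 0.17 for the double and atv mutants. Whether some arrays shared a batch was not tested. With a replicate block the HY5 change in the atv mutant against the wild type stayed at 0.58 (adjusted p = 0.016), no member call changed, and 3765 probe sets were called in place of 3829; of the other light signalling genes AUREA in the double mutant against the atv mutant (adjusted p = 0.051) was lost.

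In the order Aft, atv and double mutant against the wild type, double against Aft, double against atv, and interaction, 530, 3829, 1246, 389, 4178 and 2293 probe sets were called, and 290, 1987, 442, 76, 2252 and 872 as deposited. The share called higher was 46.7% and 60.9% as deposited in the atv mutant, 56.3% and 39.6% in the double mutant, 56.2% and 31% in double against atv, and 51.7% and 31.1% for the interaction. With 1 array left out the counts ranged from 205 to 562, 2124 to 3825, 355 to 2211, 77 to 878, 2584 to 4237 and 1172 to 2606. In the double mutant against the wild type 1978 were called with the trended robust prior, 2530 with only the groups compared and 2269 without both atv mutant arrays, and against the Aft mutant 732, 224 and 903, with 584 at a floor of 16. Light-responsive genes called in the Aft mutant were 5, and 2 to 3 in several settings. In the double mutant against the wild type they were 2, with 6 under the trended robust prior and 4 with only the groups compared, and against the Aft mutant 1, with up to 3. Their interaction count was 6, and 3 as deposited. Of the other light signalling genes, 1 was called in the double mutant against the wild type in several settings in place of none.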
